A study of Mus musculus with 4 samples.

Results

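Resting macrophages with a deleted Ezh2 gene were compared with wild-type macrophages, with 1 RNA-seq library on each side. The members of the comparison are the 8985 genes that had at least 50 expected reads in at least 1 of the 2 untreated libraries, of 15178 genes listed in either and 15935 listed anywhere in the series. The other 6193 genes stayed below that limit in both and are described only where named.

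Bone marrow of adult C57BL/6 mice was cultured for 5 days with M-CSF, the growth factor that turns marrow cells into macrophages. The group WT NT came from wild-type mice, and the group KO NT from mice with floxed Ezh2 alleles and Cre recombinase under the lysozyme M promoter (ezh2f/f lysmcre, labelled EZH2-/-). Both were left without a stimulus (NT). A second pair of libraries, WT LPS and KO LPS, was made from cells of these genotypes given lipopolysaccharide for 2 h, and it is used below only to set its values beside those of the resting cells. Lysozyme M is active in myeloid cells, so deletion takes place as they mature, and a culture can hold cells in which it is not complete. The labels give neither the number of mice behind a library nor whether the wild-type mice carried Cre or were littermates. With 1 library a group there is no replicate check and no test. A difference between mice, cultures or library preparations cannot be told apart from a difference between genotypes.

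Ezh2 is the main enzyme of Polycomb repressive complex 2 (PRC2), which places methyl groups on lysine 27 of histone H3 and so helps to keep genes silent. Ezh1, a related enzyme, can form the same complex. Eed and Suz12 are its other core parts. In macrophages the complex is best known for holding developmental genes shut and for limiting or shaping inflammatory gene expression.

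Levels are given as FPKM, fragments scaled to gene length and library size. A log2 fold is log2 of (FPKM + 1) in KO NT over (FPKM + 1) in WT NT, a scale that pulls low genes toward 0. A ratio is FPKM in KO NT over FPKM in WT NT, followed in parentheses by its exact 95% interval from the read counts (Clopper-Pearson). Such an interval covers counting error only. The sizes counted below are these: at least 2-fold on the log2 scale, and the 1.5-fold rule, at least 1.5-fold on that scale with an interval that does not include 1.

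The depth of the untreated libraries was nearly equal, 5678451 expected reads in WT NT and 5668826 in KO NT. Macrophage genes were present at high levels in both: Adgre1 (F4/80) stood at 407 and 557 FPKM in WT NT and KO NT, and Csf1r, the receptor for M-CSF, at 704 and 762. All 30 macrophage markers were listed in both libraries. Their summed level was 28523 and 29740 FPKM. Of the 17 lymphocyte markers 7 were listed in neither library, among them Cd3e and Igkc, and the summed level was 10.6 and 17.5 FPKM. Of 16 erythroid and megakaryocyte markers 7 were listed in WT NT and 10 in KO NT. The haemoglobin genes and the erythroid marker Slc4a1 were among the 6 listed in neither. The summed level of that list was 58.9 and 80.1 FPKM. Pf4, the 1 member with enough reads to compare, was at 50.9 and 66.2 FPKM, with an interval above 1. Y-linked Ddx3y was level, at 17.0 and 16.9 FPKM. Fewer cells of a type and less RNA per cell cannot be told apart in such bulk samples.

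Ezh2 (gene ID 14056) had few reads, 43 in WT NT against 31 in KO NT, and so lay under the count limit. Its level was 2.84 FPKM in WT NT, 2.06 in KO NT, 2.52 in WT LPS and 1.29 in KO LPS. The ratio without LPS was 0.725 (0.442 to 1.18), which counting error alone does not separate from 1. With LPS it was 0.512 (0.275 to 0.919), an interval below 1. Which exons are floxed is not stated, and reads from exons outside a deletion still count toward the gene, so its level does not measure deletion. Lyz2, whose promoter drives this Cre, was at 11.6 and 18.6 FPKM (ratio 1.61, 1.19 to 2.23), with reads shared between genes.

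The partners of Ezh2 were slightly higher in KO NT as a group. Of the 13 PRC2 genes on the list 10 could be compared. Ezh2 itself, at a log2 fold of -0.33, lay under the count limit and is not among them. All 10 were above 0, where 53.1% of all genes were, and 5 had an interval above 1, where 15.9% of all genes did. Their median log2 fold was 0.21, where that of all 8985 genes was 0.02. Rbbp7, a histone-binding subunit, stood at 36.3 FPKM in WT NT against 48.4 in KO NT (ratio 1.33, 1.18 to 1.503). Suz12 stood at 13.3 and 16.04 (1.203, 1.04 to 1.39), and Ezh1 at 12.2 and 12.8 (1.05, 0.891 to 1.24). Phf19, an accessory subunit that reads methylated histone, rested on 23 and 50 reads (2.17, 1.30 to 3.72), and so passed the count limit only through KO NT. It was the only member (10%) to meet the 1.5-fold rule, against 2.16% of all genes. Over the 9 members with 50 counts in both libraries the median was 0.21. Among 15 genes for PRC1 subunits and H3 lysine 27 demethylases, the median was 0.14 and 1 (6.67%) met the rule, Cbx6 (1.48 and 2.95 FPKM). Cbx6 had 46.3 and 92 reads and also passed the limit only through KO NT.

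Genes that Polycomb classically silences stayed at the edge of detection. Of 40 developmental transcription factors, such as Hox, Gata, Pax and Sox genes, none reached 50 reads. In all 15 were listed in WT NT and 14 in KO NT, the highest count of any was 20 reads, and the summed level was 4.14 and 3.99 FPKM. Cdkn2a, a cell cycle inhibitor and textbook Polycomb target, was listed in neither. Of all genes, 879 were listed only in KO NT and 827 only in WT NT of this pair. Nearly all of these had a few reads: 7 and 12 of them reached 10 reads, and the highest were Amd2 with 48.4 reads in KO NT and Gm18853 with 39.5 in WT NT. At this depth no gene went from unlisted in WT NT to 50 reads in KO NT.

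Most genes differed little between the genotypes, and the larger differences were divided nearly evenly by direction. Of the 8985 genes, 20 (0.223%) were at least 2-fold higher in KO NT and 22 (0.245%) at least 2-fold lower. The 1.5-fold rule was met by 194 genes (2.16%) on the higher side and 162 (1.8%) on the lower side, and intervals alone lay above 1 for 15.9% and below 1 for 13.1%. The central 90% of log2 folds ran from -0.38 to 0.43. Just outside the 2-fold limit, at an absolute log2 fold from 0.9 to 1, lay 17 genes on each side. The median count of the higher genes was 74.3 reads in WT NT against 129 in KO NT, and that of the lower genes 202.5 and 118. All genes compared had a median of 246 in WT NT.

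**Figure D1:**
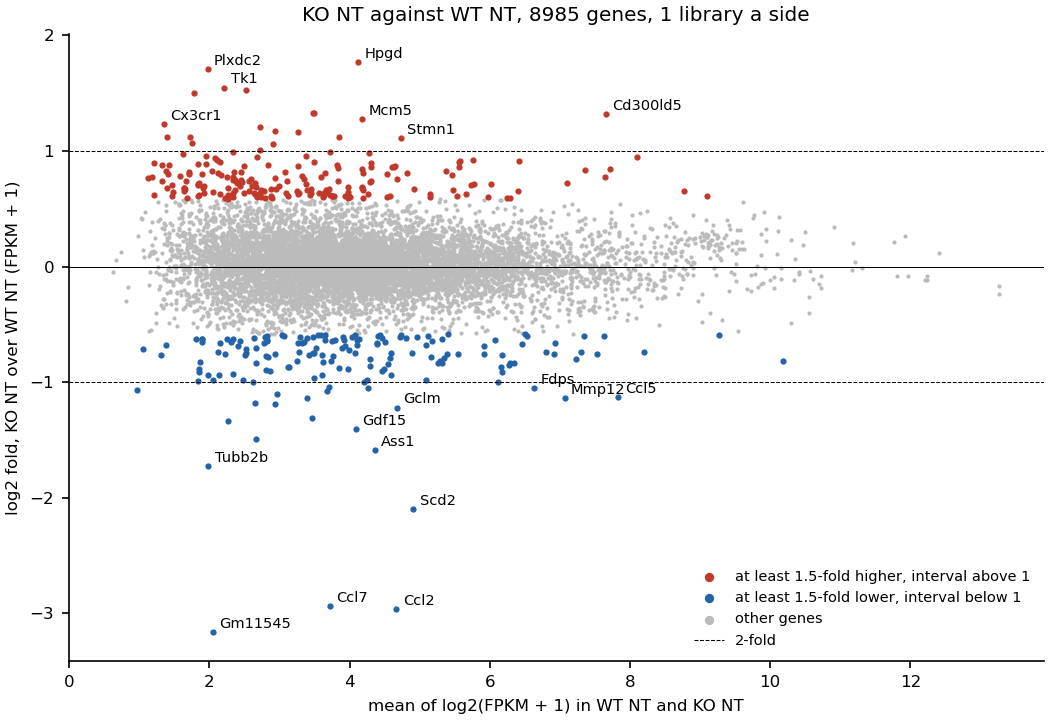
Log2 fold of KO NT over WT NT (vertical axis) against the mean log2(FPKM + 1) of the 2 libraries (horizontal axis) for 8985 genes, 1 point a gene. Ccl2, Ccl7, Scd2 and Gm11545 lie below -2, no gene lies above 2, and the 194 higher and 162 lower genes of the 1.5-fold rule are in colour.

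The 15 genes with the highest log2 folds included enzymes, transporters, receptors and replication genes. Hpgd, which inactivates prostaglandins, came first: 8.44 FPKM in WT NT against 31.1 in KO NT (ratio 3.69, 2.88 to 4.77). It stood at 3.73 in WT LPS and 15.2 in KO LPS, so both KO libraries lay above both WT libraries. Plxdc2, a membrane protein with a plexin-like domain, was at 1.18 and 6.11 FPKM (5.18, 3.78 to 7.24), and at 1.08 and 4.53 with LPS. For both genes KO lay above WT in both states. Slco2b1, an organic anion transporter, had 1.05 and 4.79 FPKM (4.56, 3.01 to 7.14). Also among the 15 were Tk1, Serpinb6b, Snhg12, Cd300ld5, Mcm5, Cx3cr1, Cd300e, Calhm6, Pctp, Dtl and Mcm7. Past the same 2-fold limit, and outside the rule for naming, were Plscr4, Stmn1, Gprc5c, Gpx3 and Ccr2.

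The 15 genes with the lowest folds were led by a locus-named gene, 2 chemokines and a desaturase. Gm11545 was at 11.5 FPKM in WT NT against 0.39 in KO NT (ratio 0.0341, 0.0123 to 0.0754), with 5.08 in WT LPS and no listing in KO LPS. It also has fractional counts. Tubb2b, a beta-tubulin with reads shared among close copies, was at 6.21 and 1.18 FPKM (0.190, 0.0970 to 0.350). Mmp12, the macrophage elastase, was the most abundant of the 15 in WT NT, at 198 and 89.6 FPKM (0.453, 0.428 to 0.478). Pdpn, a membrane glycoprotein of stromal cells and of stimulated macrophages, had 6.63 and 2.02 FPKM (0.305, 0.178 to 0.503) and was level with LPS, at 17.6 and 17.5. The remaining ones were Ccl2, Ccl7, Scd2, Ass1, Gdf15, Gclm, Gm6644, A530064D06Rik, H2-Q9, Ifit1bl1 and 1 identifier without a symbol. Of these, Scd2, Gm6644, A530064D06Rik, H2-Q9, Ifit1bl1 and the unnamed identifier have fractional counts, which leaves their values uncertain because reads are divided between similar genes.

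**Figure D2:**
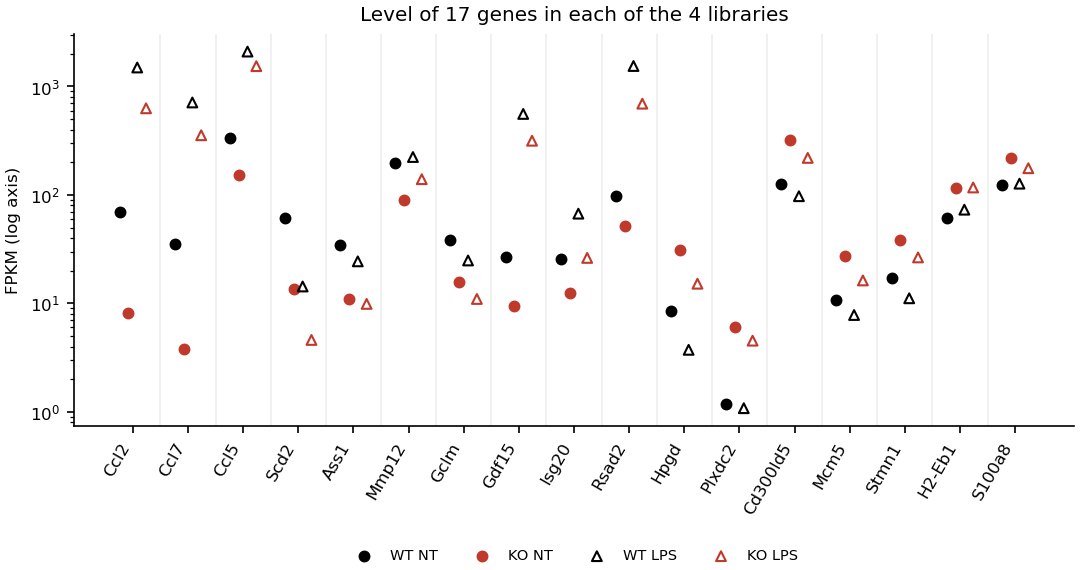
FPKM on a log axis for 17 genes (horizontal axis) in each of the 4 libraries, circles for NT and triangles for LPS, black for WT and red for KO, with 1 library a point and no error bar. The 17 genes are a selection, and for each of them KO lies on the same side of WT without and with LPS. Hpgd, for example, was at 8.44 and 31.1 FPKM without LPS. Other genes past 2-fold without LPS, such as Calhm6 and Gm6644, lay on the opposite side with LPS and are not shown.

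Cholesterol synthesis genes were lower in KO NT throughout the pathway. Cells make cholesterol from acetyl units through mevalonate, isoprenoids, squalene and lanosterol, and the transcription factor Srebf2 switches the whole chain on when sterols are scarce. All 23 genes compared had negative folds. Counting intervals excluded 1 for 22 of them, and 17 (73.9%) met the 1.5-fold rule, where 1.8% of all genes did. The median log2 fold was -0.74, and the summed level of the list was 1263 FPKM in WT NT against 774 in KO NT.

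The difference ran along the pathway from its first steps to its last. Acat2, which joins acetyl units, was at 17.5 FPKM in WT NT against 7.80 in KO NT (ratio 0.445, 0.346 to 0.575). Fdps, which makes the isoprenoid farnesyl diphosphate, was at 142 and 68.0 (0.479, 0.430 to 0.534). Mvd, the mevalonate decarboxylase, was at 25.4 and 13.6 FPKM (0.535, 0.431 to 0.662). Lss, which closes the sterol rings, stood at 18.4 and 9.60 (0.521, 0.457 to 0.595). The 3 genes nearest to no difference were Srebf2 itself (-0.26), Fdft1 (-0.25) and Ebp (-0.11), named after their values were seen. In the LPS pair 21 of the 23 genes had negative folds, 20 with an interval wholly below 1, and the list's median was -0.47.

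Fatty acid synthesis genes, mostly under the related factor Srebf1, were lower too, with a wider spread. Of 15 genes compared 13 were below 0, at a median of -0.53 that was -0.33 with a pseudocount of 5. Counting intervals lay below 1 for 10 of the 15. The 1.5-fold rule was met by 6 (40%), all lower, against 1.8% of all genes. Scd2, a desaturase that makes monounsaturated fatty acids, stood at 61.2 FPKM in WT NT, 13.5 in KO NT, 14.3 in WT LPS and 4.60 in KO LPS. Its ratio without LPS was 0.221 (0.199 to 0.246), and each KO library lay below the WT library of the same treatment. Its close copy Scd1, the next gene compared on chromosome 19, was at 1.83 and 0.35 FPKM, and both have fractional counts. Fasn, the fatty acid synthase, was at 24.99 and 12.04 (0.482, 0.439 to 0.528), and Acss2, which makes acetyl-CoA from acetate, at 5.08 and 2.17.

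Genes of lipid efflux lay on both sides. Of 13 such genes, many of them targets of the sterol sensor LXR, 8 were above 0 and 5 below, at a median of 0.12. The 1.5-fold rule was met by 2 (15.4%), Pltp and Apoc2, on the higher side, against 2.16% of all genes. Pltp, the phospholipid transfer protein, was at 347 and 546 FPKM (1.57, 1.51 to 1.64), and Lpl, lipoprotein lipase, at 817 and 1132 (1.38, 1.36 to 1.41). Smpdl3a, a phosphodiesterase induced by LXR, was lower, at 178 and 119 (0.667, 0.620 to 0.718). Apoc2, a cofactor of lipoprotein lipase, rested on 40 and 66 reads (1.74, 1.16 to 2.64), and so passed the count limit only through KO NT.

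**Figure D3:**
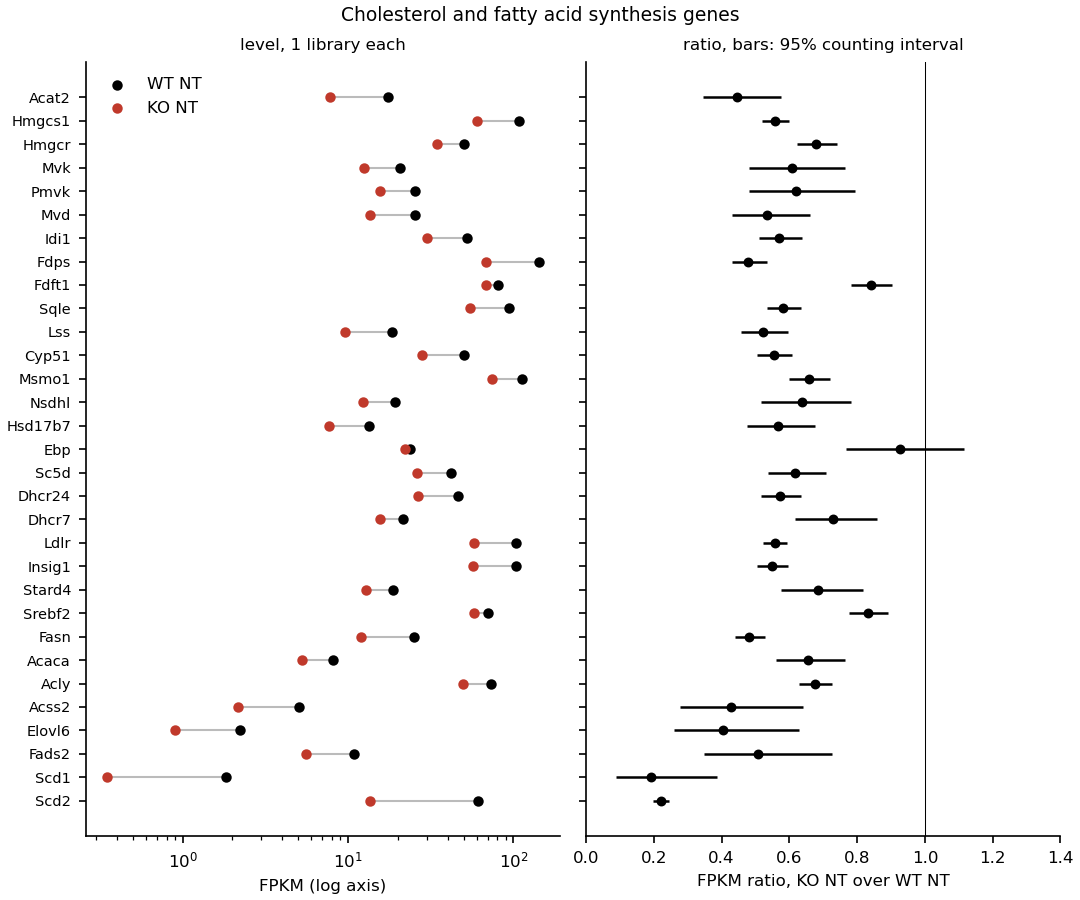
Left: FPKM (log axis) of 31 cholesterol and fatty acid genes in WT NT (black) and KO NT (red), 1 library each, with cholesterol enzymes in pathway order from the top. Right: the FPKM ratio of KO NT over WT NT with its 95% counting interval, which lies below 1 for every gene shown except Ebp. The fatty acid genes shown are a selection. Of all 15 compared, 10 had an interval below 1 and 2 had folds above 0.

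Chemokines that draw monocytes held 2 of the 3 lowest folds. Ccl2 and Ccl7 bind the receptor Ccr2 on monocytes and lie next to each other on chromosome 11 (82035577 to 82047525, GRCm38, both genes together). Ccl2 was at 70.0 FPKM in WT NT, 8.11 in KO NT, 1496 in WT LPS and 629 in KO LPS. Ccl7 was at 35.4, 3.76, 712 and 355 FPKM in the same order. Both genes were lower in KO in both states, and the distance was wider without LPS, with Ccl2 ratios of 0.116 (0.0797 to 0.164) and 0.420 (0.401 to 0.440).

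The other chemokines differed by less or in the other direction. Ccl5, which attracts T cells and monocytes, was at 337 and 153 FPKM (ratio 0.455, 0.407 to 0.507), and Ccl4 at 143 and 85.4 (0.598, 0.518 to 0.689). Of 7 CC chemokines compared 5 were below 0, and the intervals of the other 2 lay above 1. The 1.5-fold rule was met by 4 (57.1%) on the lower side, against 1.8% of all genes. Cxcl10, an interferon-induced attractant of T cells, had 14.7 and 7.04 FPKM (0.479, 0.327 to 0.693). Cxcl16 was at 71.2 and 82.7 (1.16, 1.07 to 1.27).

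Among the chemokine receptors 4 of 6 had positive folds. The 1.5-fold rule was met by 2 (33.3%) on the higher side and by 1 (16.7%), Ccrl2 (6.38 and 3.5 FPKM), on the lower. Of all genes 2.16% met it on the higher side and 1.8% on the lower. Ccr2 itself, the receptor of Ccl2 and Ccl7, was at 3.64 FPKM in WT NT against 8.35 in KO NT (ratio 2.29, 1.73 to 3.03). Cx3cr1, the fractalkine receptor of monocytes, was at 0.66 and 2.90 (4.39, 2.46 to 8.58). Both have fractional counts. Cx3cr1, with 14.2 and 62.2 reads, and Ccrl2, with 70 and 41, each passed the count limit only through the library where the gene was higher. Over the 3 receptors with 50 counts in both libraries the median log2 fold was 0.45. With LPS, Ccr2 stood at 1.81 and 3.27 FPKM, again higher in KO.

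Cytokine genes themselves were mostly too low to compare in resting cells. Only 3 of 20 had enough reads. Csf1, which encodes M-CSF, was at 5.06 FPKM in WT NT against 2.58 in KO NT (ratio 0.510, 0.361 to 0.713). Tnf, at 25.2 and 21.1, and Tnfsf10, at 2.45 and 1.95, had intervals that included 1. Il1rn, the antagonist of interleukin-1, had 50.9 and 28.5 FPKM (0.560, 0.494 to 0.634).

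The upstream machinery of sensing was mostly level or slightly higher in KO NT, with a few genes past the 1.5-fold rule. Among 22 Toll-like receptor and adaptor genes the median was 0.11, with 10 intervals above 1 and 0 below. Of all genes 15.9% had an interval above 1 and 13.1% below. The 1.5-fold rule was met by 2 (9.09%), both higher, against 2.16% of all genes. Tlr2, which senses bacterial lipoproteins, was at 27.7 and 42.7 FPKM (1.54, 1.37 to 1.74) and its partner Tlr1 at 18.2 and 28.4 (1.56, 1.34 to 1.81). NF-kB subunits and their feedback inhibitors, 18 genes, had a median of 0.20, and 2 (11.1%) met the rule, both higher. Tnip3, an inhibitor of that pathway, was at 23.1 and 37.3 (1.62, 1.44 to 1.81).

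Interferon-stimulated genes, which encode antiviral proteins, were mostly lower, by a modest amount that varied between genes. Negative folds were found for 32 of 33, and 31 had an interval wholly below 1. The 1.5-fold rule was met by 8 (24.2%) against 1.8% of all genes. Their median log2 fold was -0.35, in a range from -0.98 to 0.15, and none of this list passed 2-fold on that scale. Ifit1bl1, an Ifit-family gene outside the list, did pass it, at 14.6 and 6.08 FPKM (log2 fold -1.14, ratio 0.417, 0.314 to 0.544), with fractional counts. Isg20, an exonuclease that degrades RNA, was at 25.8 FPKM in WT NT, 12.6 in KO NT, 67.2 in WT LPS and 26.3 in KO LPS. Rsad2 (viperin) was at 97.7, 51.4, 1544 and 694. In both genes KO lay below WT in each state, at resting ratios of 0.488 (0.367 to 0.645) and 0.526 (0.489 to 0.566).

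The GTPases that attack vacuoles of intracellular pathogens showed the same direction: 10 of 11 were below 0 at a median of -0.36. Gbp2 was at 52.3 and 28.9 FPKM and Gbp3 at 21.0 and 12.1, with reads shared inside the family. Among the transcription factors above these genes, Stat2 (96.8 and 66.2 FPKM) and Irf7 (407 and 287) were lower, with ratios of 0.684 (0.642 to 0.728) and 0.705 (0.673 to 0.740). The full list of 21 interferon regulatory factors, Janus kinases, STATs and receptors was centred at 0.01, and 0 of its members met the 1.5-fold rule. The list of MHC class I and immunoproteasome genes, which interferons also induce, was below 0 in 18 of 19 at a median of -0.20. Of that list 0 met the rule. H2-Q9, a class I gene outside the list, did meet it, at 10.5 and 4.06 FPKM (0.386, 0.253 to 0.575), with fractional counts.

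MHC class II genes went the other way. These encode the molecules that present peptides to helper T cells, and the coactivator Ciita controls them. H2-Eb1 was at 61.2 FPKM in WT NT, 116 in KO NT, 73.1 in WT LPS and 117 in KO LPS, so both KO libraries lay above both WT libraries. Its resting ratio was 1.90 (1.72 to 2.11). H2-Aa was at 152 and 261 FPKM (1.72, 1.58 to 1.87) and H2-Ab1 at 106 and 175 (1.66, 1.51 to 1.83), and the 3 genes are neighbours on chromosome 17. Positive folds were found for 10 of 11 class II genes, 7 with an interval wholly above 1. The median was 0.44, and 0.72 over genes whose deposited length was the same in both libraries, a choice made after seeing the data. Cd4, which binds class II molecules and which macrophages can also carry, was at 7.70 and 12.4 (1.61, 1.29 to 2.01), while Cd3e was not listed.

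Antioxidant genes were lower in KO NT. The factor Nrf2 (Nfe2l2) induces them under oxidative stress, and they make glutathione, reduce peroxides and supply NADPH. Negative folds were found for 24 of 25, of which 19 had an interval wholly below 1, where 13.1% of all genes did. The 1.5-fold rule was met by 7 (28%) against 1.8% of all genes, and the median was -0.35. Gclm, a subunit of the enzyme that starts glutathione synthesis, was at 38.04 FPKM in WT NT, 15.8 in KO NT, 24.9 in WT LPS and 11.0 in KO LPS. Each KO library was lower than its WT counterpart, and the resting ratio was 0.415 (0.347 to 0.493). Nqo1, a quinone reductase, was at 10.5 and 4.35 FPKM (0.414, 0.276 to 0.610). Srxn1, which restores oxidised peroxiredoxins, was at 97.5 and 48.4 (0.496, 0.455 to 0.541), and Prdx1, a peroxiredoxin with 12284 and 6951 reads, at 1541 and 873 FPKM (0.567, 0.550 to 0.584). Hmox1, a widely used member of this group, was level at a log2 fold of 0.07, and Nfe2l2 itself was at -0.03. Both were named after their values were seen.

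Genes of the integrated stress response, which the factor Atf4 induces when amino acids run short, were lower in 20 of 22, at a median of -0.28. Gdf15, a stress-induced hormone, was at 26.6 and 9.44 FPKM (ratio 0.355, 0.257 to 0.482). Trib3, a pseudokinase that feeds back on Atf4, had 8.51 and 4.13 (0.485, 0.336 to 0.692), and Asns, asparagine synthetase, 18.3 and 11.0 (0.601, 0.475 to 0.757). Chaperones of the endoplasmic reticulum were below 0 in 17 of 19 at a median of -0.16. Heat shock chaperones, at -0.08 with 0 of 16 past the 1.5-fold rule, were closer to the median of all genes (0.02).

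Arginine-handling enzymes included Ass1, which makes argininosuccinate so that citrulline can be turned back into arginine. Ass1 was at 34.7 FPKM in WT NT, 10.9 in KO NT, 24.4 in WT LPS and 9.89 in KO LPS, so both KO libraries were lower than both WT libraries. Its resting ratio was 0.314 (0.248 to 0.394). Acod1, which makes itaconate, was at 26.8 and 12.4 FPKM without LPS (0.463, 0.386 to 0.553) and at 2422 and 1854 with it. Gch1, which supplies a cofactor of nitric oxide synthase, was at 20.4 and 12.8 (0.627, 0.523 to 0.751).

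DNA replication genes were higher in KO NT. The Mcm2 to Mcm7 helicase, nucleotide enzymes and chromatin assembly factors are made as cells enter S phase under the control of E2F factors. Positive folds were found for 37 of 40, and 27 had an interval wholly above 1, against 1 wholly below. The 1.5-fold rule was met by 19 (47.5%), where 2.16% of all genes met it. The median was 0.56, 0.32 with a pseudocount of 5, and 0.42 over genes with 50 counts in both libraries. Mcm5 was at 10.7 FPKM in WT NT, 27.3 in KO NT, 7.81 in WT LPS and 16.3 in KO LPS, and Mcm7 at 8.74, 20.2, 4.66 and 12.7. For both genes each KO library was above both WT libraries, and Mcm5 has fractional counts. Tk1, thymidine kinase, rested on 13 and 54 reads (ratio 4.05, 2.18 to 8.10), and Uhrf1, which maintains DNA methylation at replication, was at 6.15 and 12.04 FPKM (1.96, 1.57 to 2.45).

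The mitotic list was higher by less and from fewer reads. Of 40 genes 18 could be compared and 17 were above 0, at a median of 0.39. The rule was met by 4 (22.2%), all higher, against 2.16% of all genes. Stmn1, a microtubule destabiliser of dividing cells, was at 17.1 and 38.1 FPKM (2.23, 1.76 to 2.84). Kif23, a motor of cytokinesis, was at 3.0 and 5.71 (1.90, 1.38 to 2.66). Cenpa, the centromere histone, rested on 31 and 54 reads (1.79, 1.13 to 2.88). With a pseudocount of 5 the list's median was 0.19, and over genes with 50 counts in both libraries it was 0.255. The main filter asks for 50 reads in either library. Low genes could thus enter through the library where they were higher, as Cenpa did in KO NT. Inhibitors of cyclin-dependent kinases were lower in 4 of 5: Cdkn1c (p57) was at 31.4 and 20.3 FPKM (0.645, 0.542 to 0.766) and Cdkn1a (p21) at 110 and 86.5 (0.784, 0.719 to 0.855). Cdkn2c (p18) was at 5.00 and 7.78 (1.56, 1.06 to 2.30).

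Neutrophil granule genes were also higher, monocyte markers differed in both directions, and the part of either in the replication result was not tested. Of 26 neutrophil and granule genes 13 could be compared and 11 were above 0, at a median of 0.52. The 1.5-fold rule was met by 4 (30.8%), all higher, against 2.16% of all genes. The summed level of the list was 492 FPKM in WT NT against 780 in KO NT. S100a8 was at 122 and 219 FPKM (ratio 1.79, 1.53 to 2.10) and Ltf, lactoferrin, at 17.8 and 27.6 (1.55, 1.33 to 1.81). Of 20 monocyte markers 12 could be compared. The rule was met by 5 (41.7%) on the higher side and 1 (8.33%) on the lower, against 2.16% and 1.8% of all genes. Those higher were Cd300e (3.33 and 9.01 FPKM), Chil3 (32.3 and 56.8) and F13a1 (3.65 and 6.86), beside Ccr2 and Cx3cr1 above. Cd300e, with 37 and 100 reads, and Cx3cr1 passed the count limit only through KO NT. The lower marker was Ms4a4c (59.9 and 35.1), and the list's summed level was 181 and 195. The median of the monocyte list was 0.32, and -0.24 among genes of at least 200 counts. The 3 fibroblast and stromal markers with enough reads of 24 were lower, and the summed level of the list was 31.2 and 18.1 FPKM. All 3 (Pdpn, Col1a1 and Col1a2) passed the count limit only through WT NT, where they were higher. Pdpn is described above. Col1a1, a collagen gene, rested on 78 and 36 reads (0.463, 0.303 to 0.695), and no gene of that list passed 78 reads. Among the genes compared it is the next after Gm11545 on chromosome 11, which ends at 94761197, while Col1a1 starts at 94936224.

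Surface receptors of macrophages gave a mixed picture. In the CD300 family, immunoglobulin-like receptors for lipids, 3 of 9 (33.3%) met the 1.5-fold rule on the higher side and 1 (11.1%) on the lower. The shares over all genes were 2.16% and 1.8%. Cd300ld5 was at 127 FPKM in WT NT, 319 in KO NT, 97.3 in WT LPS and 219 in KO LPS, and Cd300ld3 at 196, 379, 134 and 288. Both have fractional counts, as members of a cluster of close copies on chromosome 11 that also holds Cd300e and, in the other direction, Cd300ld4 (17.8 and 8.13). Cd5l, a secreted scavenger protein of tissue macrophages, was at 12.7 and 26.2 FPKM (2.06, 1.68 to 2.52).

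Lectins and complement showed differences in both directions, with 2 genes of each list past the 1.5-fold rule on either side, among 13 compared in each. Each of these is 15.4%, against 2.16% of all genes on the higher side and 1.8% on the lower. Clec7a (dectin-1), the receptor for fungal beta-glucan, was at 66.6 and 105 FPKM (1.58, 1.45 to 1.73), and Clec4n (dectin-2) at 44.1 and 27.9 (0.632, 0.525 to 0.759). C3, the central complement component, was at 156 and 91.9 (0.590, 0.563 to 0.619) and Cfb, which activates it, at 32.3 and 16.4 (0.507, 0.435 to 0.591).

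Several further lists held few genes past the 1.5-fold rule. In short lists even a few are a larger share than over all genes, which was 2.16% higher and 1.8% lower. Of 18 myeloid transcription factors 15 were above 0 and 12 had an interval above 1, at a median of 0.22, and 0 met the rule. Fc gamma and scavenger receptors had a median of 0.09, with Cd5l the 1 member of 16 past the rule (6.25%). Prostaglandin genes, 14 compared, had a median of 0.02. Past the rule, Hpgd and Ptger4 (9.85 and 15.5 FPKM) were higher (14.3%) and Ptgir (3.62 and 2.0) lower (7.14%). Of 14 tubulins and intermediate filaments 13 were below 0 and 10 had an interval below 1, at a median of -0.17. The 1 gene above 0 was Lmnb1, a nuclear lamin (3.24 and 6.12 FPKM, ratio 1.89, 1.34 to 2.69). Lmnb1 met the rule on the higher side and Tubb2b on the lower, 7.14% each. Alternative activation genes had a median of -0.08. Of 9 compared, Chil3 was past the rule on the higher side (11.1%) and Mgl2 and Il1rn on the lower (22.2%). Medians were -0.06 for immediate early genes, -0.06 for semaphorins and plexins and 0.14 for small nucleolar RNA host genes. Each of these lists held 1 gene past the rule, on the higher side (7.14%, 7.14% and 12.5%). Of the dendritic cell markers 2 and of the mast cell markers 0 had enough reads to compare.

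Genes of basic cell function served as a scale for these differences. Oxidative phosphorylation subunits were centred at 0.01, with 22 of 42 above 0 and 0 past the 1.5-fold rule, and lysosomal genes at -0.02. The lysosomal list held 1 gene past the rule, Atp6v0d2, a subunit of the proton pump (33.6 and 63.9 FPKM). Glycolysis genes were at -0.09. Cytosolic ribosomal protein genes were above 0 in 48 of 49, with 45 intervals above 1, at a median of 0.22. That shift is small and even: their folds ran from -0.01 to 0.40 and 0 met the rule, and Rpl3, for example, was at 355 and 453 FPKM.

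**Figure D4:**
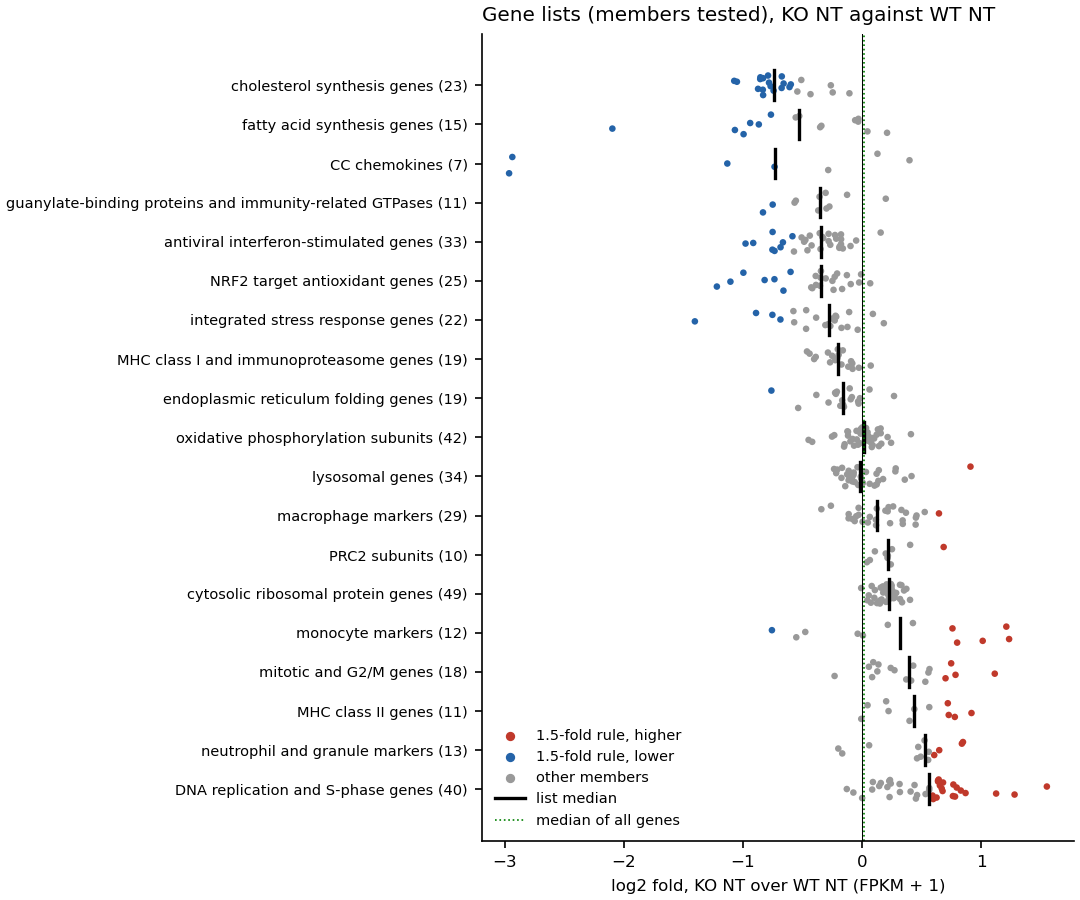
Log2 fold of KO NT over WT NT (horizontal axis) for the members of 19 gene lists, 1 point a gene and 1 row a list with the number compared in brackets. Black bars are list medians, from -0.74 for cholesterol synthesis to 0.56 for DNA replication, and the dotted line is the median of all genes (0.02).

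Promoter letters were examined in windows of 250 bases before to 50 bases after the start of each transcript (RefSeq, GRCm38.p6). Of the 8985 genes 7296 had such a window, 9339 windows in all. Motifs were sought on both strands, and a match is a description of letters, not a binding site. An E2F-type motif, TTTNNCGC, was in 34.1% of the windows of replication genes and in 8.65% of all windows. The antioxidant response element, TGACNNNGC, was in 27.6% of the windows of antioxidant genes and in 14.4% of all. That motif was as frequent in windows of other lists, such as the integrated stress response (30.4%), immediate early genes (29.4%) and prostaglandin genes (28.6%). The lists were drawn from known classes, so these shares describe the lists. Of the windows of fatty acid synthesis genes 0% held the sterol element TCACNNCAC.

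For 4 further groups the same count is void, because fewer than 80% of their genes have a window: 69.6% of the cholesterol genes, 72.7% of the antiviral genes, 79.4% of the higher genes of the 1.5-fold rule and 75.3% of the lower genes. Of all windows 3.41% held that sterol regulatory element and 3.32% an interferon-stimulated response element.

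The following sequences show such matches in promoters of genes described above, 5′ to 3′ along the gene, with the matched letters in capitals and neighbouring bases for context. Hmgcs1, the enzyme before the rate-limiting step of cholesterol synthesis, was chosen after its value was seen (log2 fold -0.83) because its window holds a sterol element.
Hmgcs1, chr13:119690184-119690252, plus strand: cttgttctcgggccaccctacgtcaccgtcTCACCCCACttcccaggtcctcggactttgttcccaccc
Mcm5, chr8:75109326-75109397, plus strand: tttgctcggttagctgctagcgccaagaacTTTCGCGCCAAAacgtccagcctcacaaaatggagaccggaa
Rsad2, chr12:26456533-26456602, minus strand: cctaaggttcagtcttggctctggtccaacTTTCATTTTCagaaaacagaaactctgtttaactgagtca
Isg15, chr4:156200845-156200926, minus strand: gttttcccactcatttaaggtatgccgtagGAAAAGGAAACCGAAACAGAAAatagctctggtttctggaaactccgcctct
Cxcl10, chr5:92349063-92349132, minus strand: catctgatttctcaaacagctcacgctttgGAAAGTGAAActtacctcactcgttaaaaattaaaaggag
Gclm, chr3:122245393-122245461, plus strand: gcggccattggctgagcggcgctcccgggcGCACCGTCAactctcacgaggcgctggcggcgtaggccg
Prdx1, chr4:116685436-116685504, plus strand: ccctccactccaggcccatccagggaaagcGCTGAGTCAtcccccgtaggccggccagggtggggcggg

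In Isg15, a ubiquitin-like antiviral protein at 239 FPKM in WT NT against 142 in KO NT, 3 matches overlap in 1 run. In Mcm5 a match on each strand overlaps. In Rsad2, Gclm and Prdx1 the match lies on the opposite strand, so its letters read as the reverse complement.

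Position in the genome was examined for the 356 genes of the 1.5-fold rule (3.96% of those compared). Within 10 Mb of Ezh2 on chromosome 6 there were 56 genes compared, of which 1 was higher and 1 lower (3.57%). Within 10 Mb of Lyz2 on chromosome 10, where this Cre sits, 1 of 52 was called (1.92%). Neighbouring genes that met the rule in the same direction formed 19 runs with 43 genes in all. Neighbours here are consecutive among the genes compared, so genes under the count limit can lie between them. Besides Ccl2 and Ccl7, they included Scd2 and Scd1, Rsad2 and Cmpk2, Gbp3 and Gbp2, and Mmp13 and Mmp12 on the lower side. On the higher side were S100a8 and S100a9, the 3 class II genes, and Cd300ld5, Cd300ld3 and Cd300e.

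Most of the resting differences were seen again in the LPS pair, which shares no library with the untreated pair but may share its cultures. Of the 194 higher genes 122 had at least 50 reads in an LPS library, and the interval of 94 (77.0%) lay above 1 there and of 3 below. Over all 7666 genes with enough reads in both states, 25% lay above. Of the 162 lower genes 135 could be followed, with the interval of 108 (80.0%) below 1 and of 8 above, where 11.3% of all genes lay below. The median log2 fold of the higher genes was 0.72 without and 0.56 with LPS, and that of the lower genes -0.75 and -0.58. The median of all genes with LPS was 0.07. Across these genes, which are not independent replicates, the folds of the pairs were correlated at a Pearson r of 0.50 and a Spearman rho of 0.41.

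**Figure D5:**
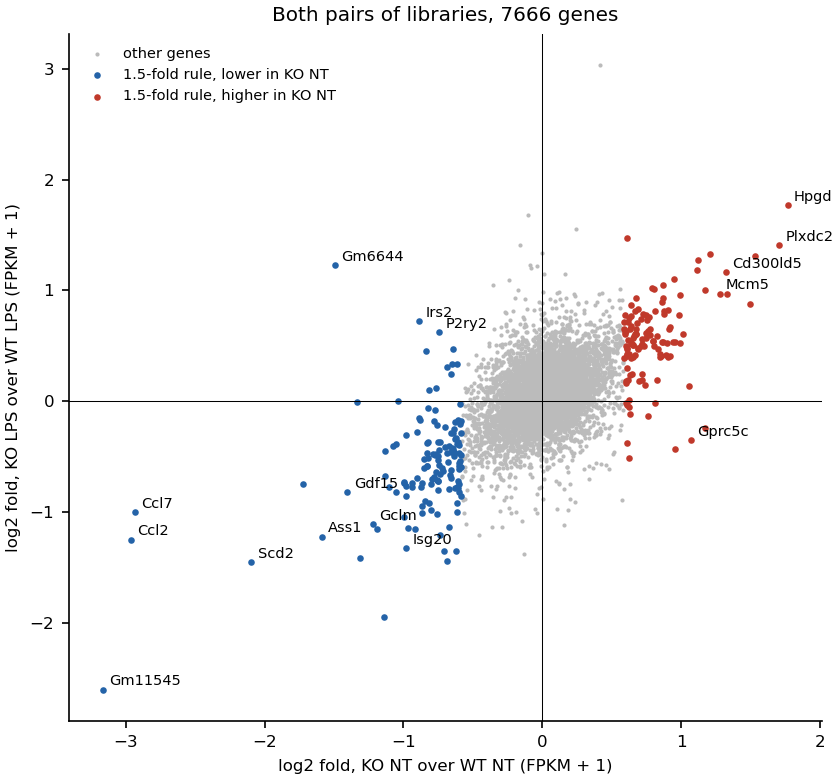
Log2 fold of KO over WT without LPS (horizontal axis) and with LPS (vertical axis) for 7666 genes with at least 50 reads in a library of each pair, 1 point a gene, coloured by the 1.5-fold rule without LPS. Most coloured genes lie in the lower left and upper right of the plot, and Gm6644, Irs2 and P2ry2 are lower without LPS and higher with it.

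Some resting differences were not found with LPS, and others could not be followed there. Snhg12, a host gene of small nucleolar RNAs, was at 6.08 and 16.7 FPKM without LPS (ratio 2.75, 1.62 to 4.85). With LPS it rested on 13 and 16 reads, below the limit, at 3.98 and 5.27 FPKM. The ratio there was 1.32, and its interval (0.597 to 2.99) includes both 1 and the resting ratio. Il1rn was lower in KO without LPS and at 374 and 402 FPKM with it. Fos, an immediate early factor, was at 39.9 and 62.2 FPKM without LPS (1.56, 1.39 to 1.75) and 11.5 and 7.80 with it (0.676, 0.510 to 0.892). Whether the genotype difference itself changes with LPS was not tested for any gene, since each group has 1 library.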

How the data were processed

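Expression was measured by RNA-seq in 4 libraries, 1 a group, and groups were taken from the sample titles. Per the submitters' processing notes, Bowtie, RSEM and mm10 were used. For versions, annotation, strand setting and filters the sources used here give nothing. Each deposited table gives an expected count per gene, estimated by RSEM, which splits a read among the genes it matches. It was used for filters, intervals and totals. The deposited FPKM is the authors' level scaled to gene length and library size. Deposited lengths differ between the untreated libraries for 2584 of 8985 genes, and 1811 have fractional counts, a sign of shared reads. Overlapping genes are uncertain where strand was not used.

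A gene missing from a table was set to 0. Folds used a pseudocount of 1 FPKM, and a gene was kept where either library reached 50 expected counts. A gene under that limit in 1 library thus entered through the library with more reads. Intervals are exact binomial intervals of the rounded counts, and PCR copies are not independent molecules. Symbols and positions come from RefSeq for GRCm38.p6, the assembly that mm10 denotes, with 12 genes compared left unmatched. The 48 gene lists, the members and the rules were chosen with earlier results of these data known. Medians were given for lists of at least 3 members compared. Named are Ezh2 and Lyz2, the 15 highest and 15 lowest folds, up to 4 members a list by absolute fold, and a fixed set (Ezh1, Suz12, Ccl2, Ccl7, Scd2, Mcm5, Hpgd, Isg20, S100a8, Cdkn1a, Adgre1, Csf1r). Other names, such as the neighbouring genes, Nfe2l2, Hmox1, Cmpk2, Mmp13, F13a1, Ms4a4c, Hmgcs1, Irs2 and P2ry2, were chosen after their values were seen. A few genes selected this way are left out of the report. The computations were tested on simulated data. Python 3.11.15, pandas 2.3.3, numpy 2.4.6, scipy 1.17.1 and matplotlib 3.10.9 were used. Alternatives were other pseudocounts, count filters, scalings and sizes.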

Additional observations from a re-analysis of the deposited data

Results flagged for a closer look

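Among 257 genes that met the 1.5-fold rule without LPS and had enough reads in both states, 3 met it in the opposite direction with LPS. All 3 were lower in KO without LPS and higher with it, and the difference between the states was not tested, since each state has 1 library a genotype. Irs2, an adaptor of insulin and cytokine receptors, was at 3.92 FPKM in WT NT, 1.66 in KO NT, 4.39 in WT LPS and 7.88 in KO LPS. Its log2 fold was -0.89 without LPS and 0.72 with it. P2ry2, a receptor for extracellular ATP and UTP, was at 11.5, 6.47, 54.2 and 84.0 FPKM in the same order, with log2 folds of -0.74 and 0.62. Its ratios were 0.563 (0.442 to 0.715) and 1.55 (1.42 to 1.69). Gm6644 was at 9.61, 2.77, 2.62 and 7.49 FPKM, with log2 folds of -1.49 and 1.23, and has fractional counts in the untreated libraries.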

How the results depend on the processing

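The number of genes past a size depended on the settings. The counts at least 2-fold higher and lower were 20 and 22. They became 2 and 6 at 3-fold, 52 and 43 with a pseudocount of 0.1, 3 and 10 with a pseudocount of 5, 32 and 38 with a filter of 20 counts, 8 and 9 with 200, 8 and 11 with 50 in both libraries, 102 and 97 without a filter, 45 and 38 on the CPM scale, and 13 and 11 for genes with whole counts, an alternative chosen after seeing the data. By the 1.5-fold rule 194 genes were higher and 162 lower. These became 706 and 553 at a log2 fold of at least 0.32, 57 and 74 with a pseudocount of 5, 69 and 83 with a filter of 200 counts, and 318 and 272 without a filter. With 50 counts in both libraries 120 were higher, and with whole counts 107 were lower. Smaller pseudocounts and looser filters admit low genes by construction. Over all settings the cholesterol list kept a median between -0.78 and -0.60, antiviral genes between -0.36 and -0.31, antioxidant genes between -0.37 and -0.32, class II genes between 0.31 and 0.72, replication genes between 0.32 and 0.63, mitotic genes between 0.19 and 0.50, fatty acid synthesis genes between -0.65 and -0.33, CC chemokines between -0.93 and -0.29, stress response genes between -0.29 and -0.25 and ribosomal protein genes between 0.21 and 0.23. The medians of 9 other lists changed sign under at least 1 setting, among them monocyte markers (0.32, and -0.24 with a filter of 200 counts) and chemokine receptors (0.30, and -0.19 with whole counts), and the other 7 had medians of 0.14 or less in size. The ratio of Ezh2 was 0.722 from counts at equal totals. No paired analysis was possible because each group has 1 library.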
